A study of Homo sapiens with 12 samples.

Results

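Integrins and laminins were described across 12 RNA-seq libraries of 2 human triple-negative breast cancer cell lines with and without interferon-β. The members are all genes of the deposited count tables whose symbol names an integrin alpha chain, an integrin beta chain or a laminin chain, 38 of 61552 genes. They comprise 18 integrin alpha chains, 8 integrin beta chains and 12 laminin chains. HCC38 and MDA-MB-231 are established breast tumour lines without oestrogen and progesterone receptors and without raised HER2. The labels give the genotype of every library as WT. HCC38 was kept in RPMI-1640 and MDA-MB-231 in DMEM with little glucose, both with fetal calf serum and antibiotics, and the effect of the medium cannot be told apart from that of the line. Interferon-β, a type I interferon, was given to either line at 400 IU/mL for 48 h or left out. The 4 groups each have 3 libraries. The labels name them biological replicates but do not state that they came from separate cultures, so p-values measure only the spread among these samples, which may be technical.

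Integrins are receptors of the cell surface made of an alpha and a beta chain, which together choose the ligand. They bind the matrix or other cells outside, and inside they couple through talin, kindlin and focal adhesion proteins to actin, or, in the α6β4 pair, through plectin to keratin in hemidesmosomes. Laminins are cross-shaped trimers of an alpha, a beta and a gamma chain that polymerise into the basement membrane, the sheet on which epithelial cells rest. In breast epithelium α3β1, α6β1 and α6β4 are the laminin receptors, α1β1 and α2β1 bind collagen, α5β1 binds fibronectin, and the αv integrins bind vitronectin, fibronectin or latent TGF-β through the RGD sequence. Transcript levels say nothing of which pairs or trimers were assembled or reached the surface or the matrix.

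Total counts per library were 26660038 to 43588773, and the 38 genes took 0.374% to 0.636% of them. Counts were tested with edgeR's quasi-likelihood test in 1 fit of all 12 libraries, with Benjamini-Hochberg adjustment over the 18121 genes that passed a filter on low counts. A call means an adjusted p under 0.05 in that test, which gave all adjusted p-values below unless another is named. ESR1 and PGR, the oestrogen and progesterone receptors, were at most 0.0749 CPM in any library, and ERBB2, which encodes HER2, averaged 163 CPM in untreated HCC38 and 63.3 CPM in untreated MDA-MB-231. The epithelial marker EPCAM averaged 213 and 2.58 CPM. All 7 genes of the interferon response check, such as MX1 and OAS1, were called higher in both treated lines. CPM are counts divided by the library total and put on a common scale. The summed level of 12 leukocyte markers was 9.60 to 12.5 CPM in HCC38 libraries and 2.93 to 5.37 CPM in MDA-MB-231 libraries, with MS4A1 and TYROBP at 0 in all of them. The 7 platelet markers summed to at most 0.102 CPM. The 9 fibroblast and endothelial markers summed to 436 to 517 CPM in HCC38, where COL6A3 alone averaged 447 CPM untreated, and to 5.67 to 16.1 CPM in MDA-MB-231. The MDA-MB-231 libraries fell into a pair of sets by the numbers in their deposited names. Set A holds untreated replicates 1 and 2 and treated replicate 1, and set B holds untreated replicate 3 and treated replicates 2 and 3. Replicates of 1 group differed by a chi-square per degree of freedom of 46.5 to 68.1 between sets and of 4.31 to 15.4 otherwise, HCC38 included. No replicates thus agreed within sampling noise, and values within each set are given beside the MDA-MB-231 results. Within a set 1 of the arms is a single library, treated in set A and untreated in set B, so a p-value with 1 set alone takes its spread from the other groups and assumes that this library varies like theirs. Because the RNA is from many cells, a change in part of the cells and a change in every cell cannot be told apart.

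Sequence upstream of 4 members is shown because these genes carry the main contrasts described below. ITGA2 rose in treated HCC38, with a different response in MDA-MB-231, ITGAV was called lower in treated MDA-MB-231, and ITGA11 and ITGB6 were expressed in HCC38 and close to 0 in MDA-MB-231. Each stretch reads 5′ to 3′ on the gene's strand towards a RefSeq start in GRCh38.p14. It ends where an exon of the gene in GENCODE release 29 begins. Capitals mark the CG dinucleotides. The ITGA2 stretch is chr5:52989102-52989325 (plus strand, 77.2% G and C, 24 CG dinucleotides), and that of ITGAV is chr2:186589806-186590055 (plus strand, 70.8%, 18 CG). RefSeq gives ITGAV another start, whose stretch (chr2:186599955-186600204, not shown) has 40.8% G and C and 1 CG. The ITGA11 stretch is chr15:68432164-68432413 (minus strand, 71.2%, 23 CG), and that of ITGB6 is chr2:160200314-160200522 (minus strand, 30.1%, 0 CG).
ITGA2: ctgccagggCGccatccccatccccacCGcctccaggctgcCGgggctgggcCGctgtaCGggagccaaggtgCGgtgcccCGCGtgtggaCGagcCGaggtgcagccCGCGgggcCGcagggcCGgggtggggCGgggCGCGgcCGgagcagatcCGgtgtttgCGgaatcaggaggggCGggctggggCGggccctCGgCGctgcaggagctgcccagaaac
ITGAV: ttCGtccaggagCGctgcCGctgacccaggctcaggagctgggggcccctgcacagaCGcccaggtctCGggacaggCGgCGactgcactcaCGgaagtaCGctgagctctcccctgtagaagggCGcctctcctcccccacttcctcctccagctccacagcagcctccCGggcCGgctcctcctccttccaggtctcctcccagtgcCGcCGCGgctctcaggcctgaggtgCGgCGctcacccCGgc
ITGA11: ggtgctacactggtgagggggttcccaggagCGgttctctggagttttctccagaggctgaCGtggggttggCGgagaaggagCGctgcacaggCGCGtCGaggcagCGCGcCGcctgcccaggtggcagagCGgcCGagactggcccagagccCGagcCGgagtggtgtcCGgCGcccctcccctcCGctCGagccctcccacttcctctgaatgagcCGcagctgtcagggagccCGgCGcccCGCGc
ITGB6: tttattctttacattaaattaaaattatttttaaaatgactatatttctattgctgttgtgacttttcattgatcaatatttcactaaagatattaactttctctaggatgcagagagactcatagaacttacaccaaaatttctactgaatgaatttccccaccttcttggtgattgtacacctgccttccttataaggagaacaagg
The stretches of ITGA11 and ITGB6 differ widely in base composition. Whether base composition bears on their levels was not tested. Over 35116 RefSeq promoters the median of the 250 bases before the start was 58.0% G and C with 11 CG dinucleotides. Those 250 bases were searched on both strands for a core of the interferon-stimulated response element (GAAA, any 2 bases, GAAA) and for the gamma-activated site (TTC, any 3 bases, GAA), the sites of interferon-activated transcription factors. RefSeq gave 33 promoters for 26 of the members. The response element core was in 3.02% of all promoters and in 1 of the members' promoters, a start of ITGB5, where it ended 221 bases before the start. The gamma-activated site was in 6.57% of all promoters and in 2 of the members', those of ITGAE and LAMB2. The windows of ITGA2, ITGA5, ITGA6, ITGA11, ITGAV, ITGB1, LAMA2, LAMA3 and LAMA4, all called in an interferon comparison below, hold neither run of letters. ITGA3, ITGB3 and LAMA1, also called there, had no promoter in this collection and were not searched. A match or its absence is a description of these letters only.

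**Figure D1:**
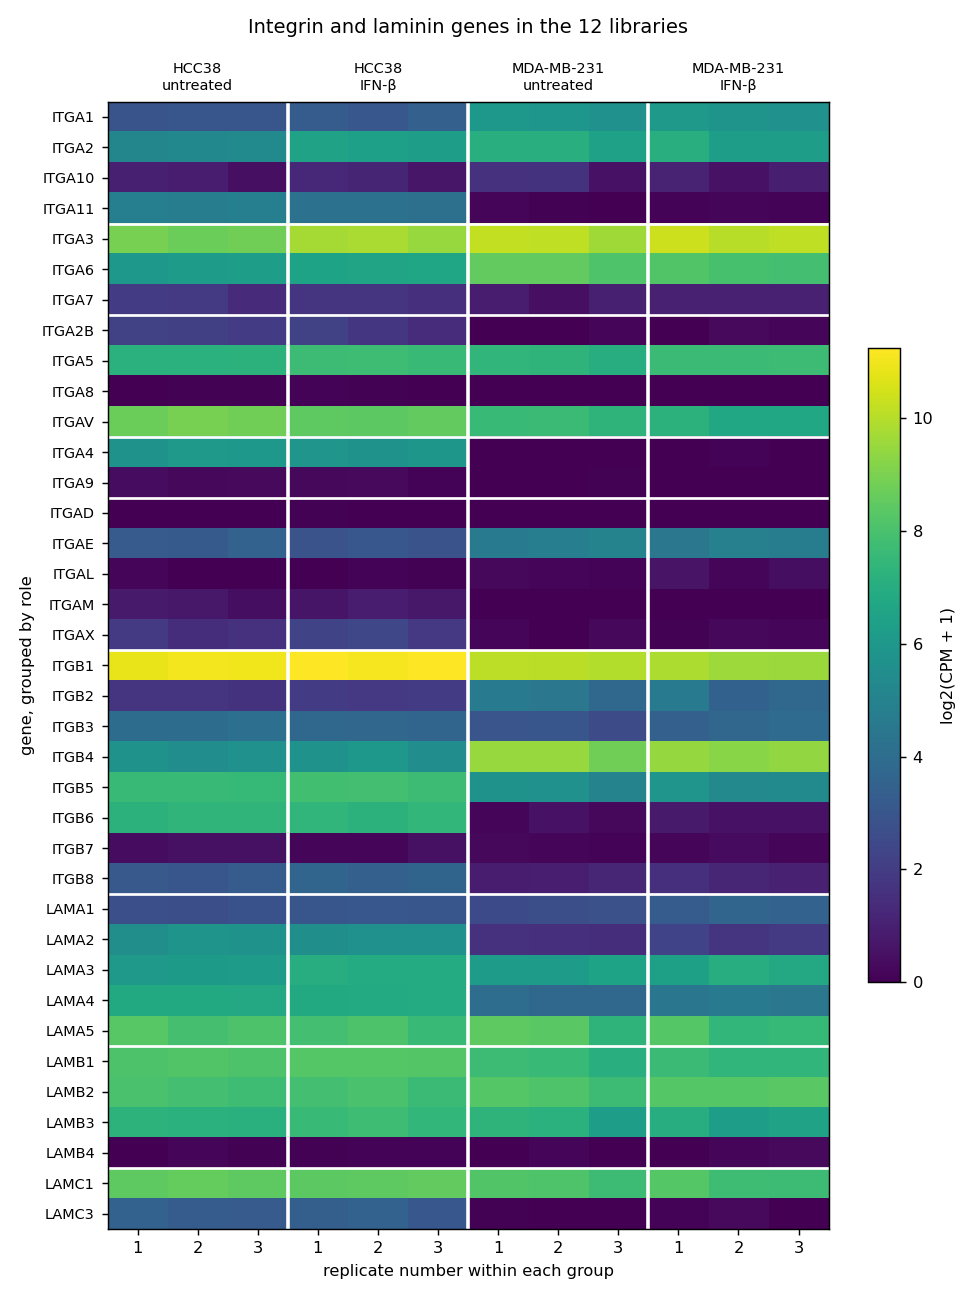
Heat map of 37 integrin and laminin genes (rows, grouped by role) in the 12 libraries (columns, by group and replicate), with colour for log2(CPM + 1), a scale that is not corrected for gene length. ITGB1 is the brightest row in HCC38, and ITGA4, ITGA11, ITGB6 and LAMC3 are dark in all MDA-MB-231 libraries and not in HCC38.

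The lines shared their most abundant chains per transcript length, with ITGAE left out of the order of the alpha chains. Its FPKM of 25.4 ± 3.73 in untreated HCC38 and 77.5 ± 2.07 in untreated MDA-MB-231 disagree with its counts, as described at the end. FPKM are the deposited estimates scaled for transcript length and depth, given as mean ± SD of 3 libraries. Among the alpha chains of untreated HCC38, ITGA3, a laminin-binding chain, led with 87.6 ± 6.65 FPKM. It was followed by ITGAV with 61.4 ± 3.54 FPKM and ITGA5, the fibronectin receptor chain, with 31.1 ± 0.583 FPKM. ITGA6 (11.9 ± 1.30 FPKM) and ITGA4 (9.73 ± 1.49 FPKM) came next and did not differ beyond their spread, nor did ITGA2 (5.06 ± 0.388 FPKM) and ITGA11 (4.29 ± 0.671 FPKM). In untreated MDA-MB-231 the order was ITGA3 with 206 ± 41.8 FPKM, ITGA6 with 55.6 ± 10.1 FPKM, ITGA5 with 31.9 ± 4.50 FPKM and ITGAV with 24.0 ± 4.25 FPKM, where the last 2 overlapped in spread. ITGA2 (15.3 ± 4.20 FPKM) and ITGA1 (13.4 ± 2.54 FPKM) followed and also overlapped. Every other alpha chain except ITGAE was under 1 FPKM on average in untreated MDA-MB-231.

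ITGB1, the common partner of most alpha chains, led the beta chains of both lines with 536 ± 30.0 FPKM in untreated HCC38 and 277 ± 22.9 FPKM in untreated MDA-MB-231. In HCC38 it made up 82.2% ± 0.956 of the summed FPKM of the 8 beta chains, followed by ITGB5 (53.5 ± 2.59 FPKM) and ITGB6 (47.1 ± 1.48 FPKM), which both pair with αv. In MDA-MB-231 the second beta chain was ITGB4, the hemidesmosome chain that pairs with α6, with 120.2 ± 21.7 FPKM and 28.6% ± 1.85 of the beta sum. The level of ITGB1 was 66.7 ± 10.6 times that of ITGB4 in untreated HCC38 and 2.34 ± 0.264 times in untreated MDA-MB-231. ITGB4 was at 0.688 ± 0.108 times the level of its partner ITGA6 in untreated HCC38 and at 2.16 ± 0.0628 times in untreated MDA-MB-231.

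Among laminin alpha chains LAMA5, of laminins with a wide epithelial distribution, had the highest mean in both untreated lines with 36.0 ± 8.04 FPKM in HCC38 and 31.7 ± 7.95 FPKM in MDA-MB-231. LAMA4, a chain of vascular and mesenchymal laminins, was second in HCC38 with 25.1 ± 2.14 FPKM, no library of which exceeded one of LAMA5, but reached 2.41 ± 0.0478 FPKM in MDA-MB-231. LAMA3, the alpha chain of laminin-332, was at 11.4 ± 0.822 FPKM in HCC38 and 10.3 ± 1.87 FPKM in MDA-MB-231. LAMB2 led the beta chains of MDA-MB-231 with 91.0 ± 3.96 FPKM. In HCC38 it was at 68.4 ± 10.9 FPKM and did not differ beyond its spread from LAMB1 (58.8 ± 1.00 FPKM). LAMC1 led the gamma chains with 48.0 ± 2.74 and 34.1 ± 4.68 FPKM. LAMA1, LAMB4 and, in MDA-MB-231, LAMC3 and LAMA2 were all under 1 FPKM in untreated cells.

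**Figure D2:**
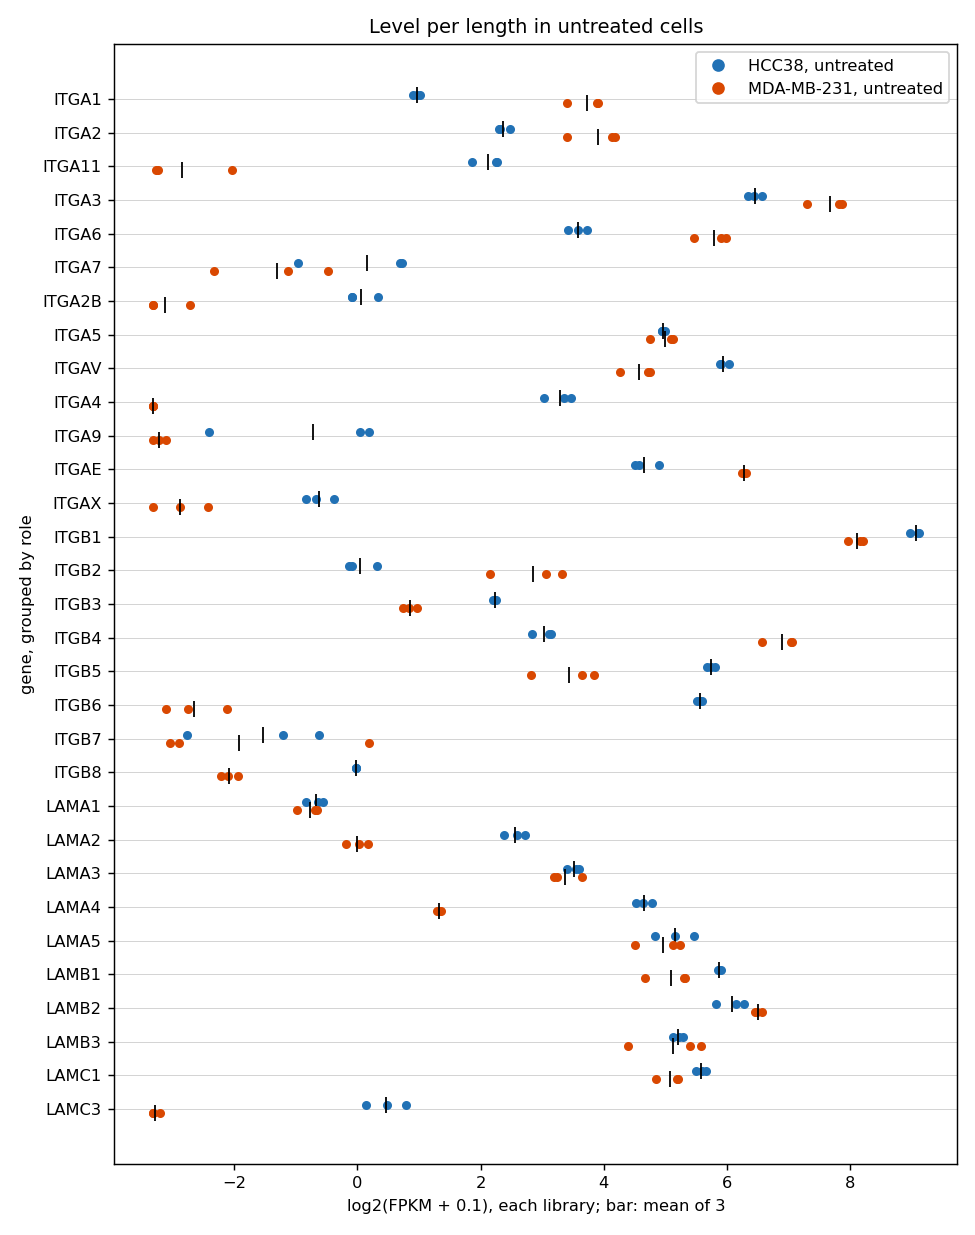
Level per transcript length, log2(FPKM + 0.1), of the members with at least 1 FPKM in some library, in untreated HCC38 and untreated MDA-MB-231, with each point 1 library and a bar for the mean of 3. The widest gaps are those of ITGA4 and ITGB6, both lower in MDA-MB-231, and ITGB4 is among the genes higher there.

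MDA-MB-231 and HCC38 differed in most of these genes without treatment, as in most genes overall. Of the 33 members that passed the filter on low counts, 7 were called higher and 19 lower in untreated MDA-MB-231, against 75.5% of all tested genes called, 36.4% higher and 39.0% lower. The median log2 fold change of the tested members was -0.90, that of all tested genes -0.04. Integrins split into 7 higher and 13 lower of 22, while of 11 tested laminins 0 were called higher and 6 lower. A call with an absolute log2 fold change of at least 2 was made for 15 members, against 25.8% of all tested genes. Between the treated lines 8 members were called higher and 18 lower, with 74.9% of all genes called, 36.7% higher and 38.2% lower, and 23 members were called in the same direction in both comparisons. The lines did not overlap in CPM for 27 members untreated and 26 treated, against 78.0% and 76.7% of all genes.

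Receptors that were higher in untreated MDA-MB-231 include both chains of α6β4. ITGB4 was at 54.0, 44.6 and 50.8 CPM in the 3 untreated HCC38 libraries and at 738, 733 and 451 CPM in those of MDA-MB-231, a log2 fold change of 3.69 ± 0.18 (SE, adjusted p = 1.36e-10). ITGA6 was at 63.5, 72.8 and 75.2 CPM in untreated HCC38 and at 368, 368 and 279 CPM in untreated MDA-MB-231 (2.26 ± 0.12, adjusted p = 2.22e-10). The lowest MDA-MB-231 value of each gene, that of replicate 3 in set B, was still several times the highest HCC38 value. ITGA1, a collagen receptor chain, was at 6.52, 7.11 and 6.95 CPM in untreated HCC38 and at 63.4, 59.1 and 51.0 CPM in untreated MDA-MB-231 (3.07 ± 0.14). ITGB2, the beta chain of leukocyte integrins, was at 2.18, 2.32 and 2.17 CPM in HCC38 and at 23.6, 21.0 and 12.9 CPM in MDA-MB-231 (3.10 ± 0.31, adjusted p = 3.20e-07). Of its leukocyte partners ITGAM and ITGAX were lower in MDA-MB-231. ITGAM was counted 0 times in the 3 untreated MDA-MB-231 libraries, a level at least 20.4-fold lower than in untreated HCC38 (floor of 3 counts over the group), and ITGAX averaged 0.0923 CPM there. ITGAL did not pass the filter, with 4, 1 and 0 counts in untreated HCC38 and 5, 5 and 3 in untreated MDA-MB-231. After treatment its counts were 0, 3 and 1 in HCC38 and 18, 4 and 13 in MDA-MB-231, and the fit with no filter called it higher in treated MDA-MB-231 than in treated HCC38. ITGA2 (1.66 ± 0.20) and ITGA3 (1.23 ± 0.14) were the other integrins with unambiguous counts called higher in untreated MDA-MB-231.

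The chains that were lower in MDA-MB-231 include several at or near 0. ITGB6, the beta chain of the αvβ6 receptor of epithelia that activates TGF-β, was at 149, 163 and 165 CPM in untreated HCC38 and at 0.107, 0.477 and 0.194 CPM in untreated MDA-MB-231, a log2 fold change of -9.22 ± 0.22 (adjusted p = 5.69e-14). ITGA4, an alpha chain that binds VCAM1 and fibronectin, was at 51.6, 64.3 and 62.0 CPM in untreated HCC38 and had 0 counts in all 3 untreated MDA-MB-231 libraries. Its level was thus at least 2037-fold lower (floor of 3 counts over the group). In the treated MDA-MB-231 libraries ITGA4 had 2 counts, both in replicate 2, a 2960-fold lower level with a 95% Poisson interval of 819 to 24439 that covers counting error only. ITGA11, a collagen receptor chain of mesenchymal cells, was at 27.8, 26.3 and 27.9 CPM in untreated HCC38 and at most 0.143 CPM in untreated MDA-MB-231 (-8.56 ± 0.24). ITGB5 was at 195, 196 and 185 CPM in untreated HCC38 and at 53.4, 50.5 and 32.0 CPM in untreated MDA-MB-231 (-2.08 ± 0.17, adjusted p = 4.73e-08). None of these groups overlapped between the lines. The platelet chain ITGA2B (3.39 against 0.0584 CPM), ITGB8 (7.89 against 1.04 CPM), ITGA7 (2.44 against 0.726 CPM), ITGAX (2.21 against 0.0923 CPM) and ITGB7 (0.393 against 0.124 CPM) were lower at small levels, and ITGB1, ITGB3 and ITGAV by log2 values of -0.90, -1.29 and -1.28. ITGB7 was not called with set A alone (adjusted p = 0.0693) or without untreated MDA-MB-231 replicate 3 (adjusted p = 0.0587), and its FPKM were 0.309 ± 0.253 in untreated HCC38 and 0.364 ± 0.582 in untreated MDA-MB-231.

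The mesenchymal laminin chains went the same way. LAMA4 was at 111, 112 and 109.5 CPM in untreated HCC38 and at 15.3, 12.8 and 12.4 CPM in untreated MDA-MB-231, a log2 fold change of -3.04 ± 0.09 (adjusted p = 6.68e-13). LAMA2, the alpha chain of muscle and nerve laminin, was at 46.6, 54.7 and 53.4 CPM in HCC38 and at 2.07, 1.91 and 1.75 CPM in MDA-MB-231 (-4.76 ± 0.16). LAMC3 had 2 counts over the 3 untreated MDA-MB-231 libraries against 9.21 ± 1.14 CPM in untreated HCC38, a 473-fold lower level with a counting interval of 131 to 3910. LAMB1 (-0.63 ± 0.13) and LAMC1 (-0.47 ± 0.15) were also called lower. LAMA1, LAMA3, LAMA5, LAMB2 and LAMB3 were not called between the untreated lines. For LAMA5 the estimate was 0.01 ± 0.26 with all libraries, but -0.78 (adjusted p = 9.48e-05) with set B alone on the MDA-MB-231 side, where the untreated arm is 1 library. Its level was 349 and 329 CPM in the untreated libraries of set A and 159.7 CPM in that of set B.

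Positions of the genes called after treatment are those of the deposited tables on GRCh38, counted from 1. ITGA2 (ENSG00000164171) spans chromosome 5 from 52989340 to 53094779, next to ITGA1 (ENSG00000213949), which spans 52787916 to 52959209. ITGA3 (ENSG00000005884) spans chromosome 17 from 50055968 to 50090481, ITGA5 (ENSG00000161638) chromosome 12 from 54395261 to 54419266 and ITGB3 (ENSG00000259207) chromosome 17 from 47253827 to 47313743. LAMA3 (ENSG00000053747) spans chromosome 18 from 23689453 to 23956222, and its RefSeq start lies inside that locus, at the first exon of a shorter transcript. LAMA2 (ENSG00000196569) spans chromosome 6 from 128883138 to 129516566 and LAMA4 (ENSG00000112769) chromosome 6 from 112107931 to 112254939.

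Interferon-β in HCC38 raised 4 members and lowered 1. Higher were the collagen receptor chain ITGA2, the laminin receptor chain ITGA3, the fibronectin receptor chain ITGA5 and the laminin-332 chain LAMA3, and lower was ITGA11. The 5 calls of 33 stand beside 3.64% of all tested genes called, 2.39% higher and 1.25% lower. The treated and untreated libraries did not overlap in CPM for 19 of the 33 members, against 27.0% of all tested genes. The median log2 fold change of the members was 0.14, that of all genes 0.00. The 38 genes together took 0.534% to 0.543% of the counts of untreated HCC38 libraries and 0.613% to 0.636% of those of treated ones. The largest gains in mean CPM were those of the abundant ITGA3 (450 to 821 CPM) and ITGB1 (1999 to 2335 CPM).

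ITGA2 was at 34.9, 37.1 and 41.0 CPM in untreated and at 88.6, 80.4 and 77.7 CPM in treated HCC38, a log2 fold change of 1.13 ± 0.20 (adjusted p = 0.0046). ITGA3 was at 488, 419 and 443 CPM in untreated and at 843, 900.1 and 719 CPM in treated HCC38 (0.87 ± 0.14, adjusted p = 0.00282). ITGA5 went from 144, 143 and 148 CPM to 205, 216 and 198 CPM (0.51 ± 0.09, adjusted p = 0.00465). Every treated HCC38 library lay above every untreated one for these 3 alpha chains, all of which pair with ITGB1. ITGB1 itself was at 1866 to 2089 CPM in untreated and 2182 to 2424 CPM in treated HCC38 and was not called (0.22 ± 0.09, adjusted p = 0.251). Of the summed FPKM of the alpha chains other than ITGAE, ITGA3 held 40.4% ± 2.68 untreated and 54.0% ± 2.01 treated, and ITGAV 28.3% ± 1.86 and 16.0% ± 1.09. ITGA11 was at 27.8, 26.3 and 27.9 CPM untreated and at 17.4, 17.2 and 17.0 CPM treated (-0.67 ± 0.13, adjusted p = 0.00749). The groups of ITGA11 did not overlap, but it was not called without untreated replicate 3 or treated replicate 1 (adjusted p up to 0.0539) or on log2(FPKM + 1).

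LAMA3 was at 66.6, 69.2 and 70.2 CPM in untreated and at 128, 121 and 121 CPM in treated HCC38 (0.85 ± 0.13, adjusted p = 0.0014), though it was not called on log2(FPKM + 1) with limma (adjusted p = 0.064). LAMB3, its partner beta chain, was separated between the groups and not called. LAMB3 was at 138 to 151 CPM untreated and 175 to 212 CPM treated (0.44 ± 0.22, adjusted p = 0.359). In the fit of all libraries the spread of a gene is shared by both lines, so the library sets of MDA-MB-231 enter the HCC38 test. With a term for those sets 12 members were called in HCC38, among them ITGA6, ITGAE, ITGAV, ITGB1, ITGB5 and LAMB3, where LAMB3 had an adjusted p of 0.00121. In a fit of the 6 HCC38 libraries alone 15 were called. The share of 3.64% of all tested genes given above does not belong to these alternative fits. Their counts are therefore not to be set against it.

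**Figure D3:**
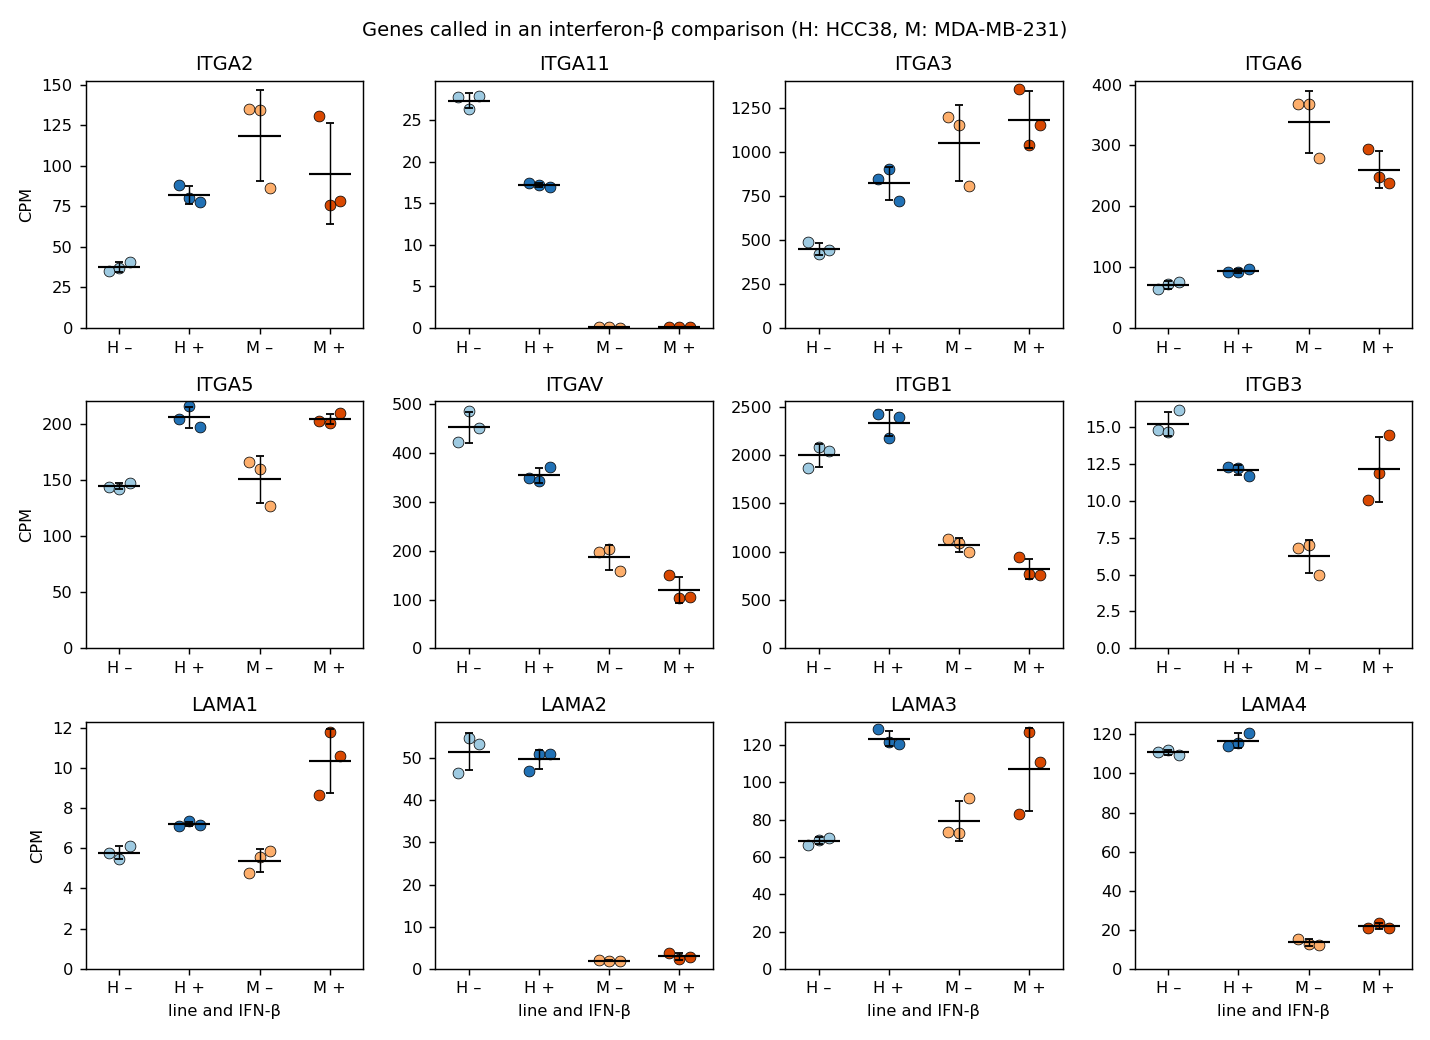
CPM in every library of the 12 members called in an interferon comparison, with untreated (-) and interferon-β-treated (+) libraries of each line, and bars for the mean ± SD of 3 libraries. ITGA5 is higher after treatment in both lines (145 to 206 CPM in HCC38 and 151 to 205 CPM in MDA-MB-231), while ITGA2 is higher in treated HCC38 alone (37.7 to 82.2 CPM).

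In treated MDA-MB-231 6 members were called higher, of which 4 are laminin alpha chains, and 3 integrin chains were called lower. Set B supplies more of the treated than of the untreated libraries, so differences between the sets enter these calls. LAMA1, LAMA2, LAMA3, LAMA4, ITGA5 and ITGB3 were called higher and ITGA6, ITGAV and ITGB1 lower. These 9 of 33 stand beside 12.5% of all tested genes called, 6.46% higher and 6.08% lower. The groups did not overlap for 8 of the 33, against 27.0% of all genes, and the median log2 fold change of the members was 0.25 against 0.00 for all genes. Only ITGA5 and LAMA3 were called higher in both lines.

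LAMA4 was at 15.3, 12.8 and 12.4 CPM in untreated and at 20.6, 23.4 and 21.1 CPM in treated MDA-MB-231, a log2 fold change of 0.69 ± 0.09 (adjusted p = 0.000144). The value was 0.55 within set A and 0.84 within set B. LAMA1, the alpha chain of the first laminin described, was at 4.75, 5.55 and 5.87 CPM untreated and at 8.64, 11.8 and 10.6 CPM treated (0.94 ± 0.14, adjusted p = 0.00055, 0.74 within set A and 0.93 within set B). LAMA2 was at 2.07, 1.91 and 1.75 CPM untreated and at 3.80, 2.26 and 2.77 CPM treated (0.64 ± 0.17, adjusted p = 0.0257, 0.93 and 0.53). It was not called without untreated replicate 2 or 3 or treated replicate 1 or 3 (adjusted p up to 0.0818). These 3 chains had no treated library below an untreated one, but the treated levels of LAMA2 and LAMA4 stayed far under those of HCC38, at 2.94 against 49.7 CPM and at 21.7 against 117 CPM. LAMA2 was not called within set B either (adjusted p = 0.0999). LAMA3 was at 73.3, 72.8 and 91.8 CPM untreated and at 83.1, 127 and 111 CPM treated, so that the groups overlapped (0.43 ± 0.13, adjusted p = 0.0396). Its value was 0.18 within set A (adjusted p = 0.332) and 0.37 within set B (adjusted p = 0.0147), and with any 1 library left out it was called only without untreated replicate 3 or treated replicate 1 of MDA-MB-231 (adjusted p up to 0.184 otherwise). On log2(FPKM + 1) with limma neither LAMA2 (adjusted p = 0.204) nor LAMA3 (adjusted p = 0.547) was called. LAMA5, the most abundant alpha chain, was at 349, 329 and 159.7 CPM untreated and at 313, 176 and 186 CPM treated and was not called.

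ITGB3, the beta chain of the vitronectin receptor αvβ3, was at 6.82, 6.98 and 4.97 CPM in untreated and at 10.1, 11.9 and 14.5 CPM in treated MDA-MB-231 (0.96 ± 0.15, adjusted p = 0.000888). Within set A the value was 0.54 and within set B 1.41. ITGA5 was at 166, 160.2 and 127 CPM untreated and at 203, 202 and 210.1 CPM treated (0.44 ± 0.09, adjusted p = 0.00493, 0.31 and 0.69). Both genes were separated between the groups.

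ITGAV was at 197, 205 and 158 CPM in untreated and at 149.7, 104 and 105 CPM in treated MDA-MB-231 (-0.64 ± 0.13, adjusted p = 0.00524, -0.43 within set A and -0.60 within set B). In HCC38 it was at 422, 486 and 451 CPM untreated and at 349, 343 and 373 CPM treated, also without overlap but not called (-0.35 ± 0.13, adjusted p = 0.184). It was called there with the set term (adjusted p = 0.000901), in the fit of the 6 HCC38 libraries (0.00178) and with no filter (0.00628), and the difference between the lines was not called (-0.29 ± 0.19, adjusted p = 0.437). ITGB1 was at 1131, 1086 and 994 CPM untreated and at 941, 769 and 759 CPM treated (-0.38 ± 0.09, adjusted p = 0.017). Within set A its value was -0.24 (adjusted p = 0.126) and within set B -0.38 (adjusted p = 0.00355), and it was not called without untreated replicate 1 or 2 or treated replicate 2 or 3 of MDA-MB-231 (adjusted p up to 0.0797). ITGA6 was at 368, 368 and 279 CPM untreated and at 295, 248 and 238 CPM treated, with the untreated library of set B below the treated library of set A (-0.38 ± 0.11, adjusted p = 0.0399). It was called in neither set alone (-0.32 and -0.20, adjusted p = 0.0587 and 0.162), and with any 1 library left out it was called only without untreated HCC38 replicate 1 or untreated replicate 3 or treated replicate 1 of MDA-MB-231 (adjusted p up to 0.163 otherwise). On log2(FPKM + 1) none of these 3 decreases was called (adjusted p 0.0889 for ITGAV, 0.0994 for ITGB1 and 0.21 for ITGA6). The partner of ITGA6 in hemidesmosomes, ITGB4, was at 451 to 738 CPM untreated and 608 to 711 CPM treated and was not called, and the FPKM ratio of ITGB4 to ITGA6 was 2.16 ± 0.0628 untreated and 3.01 ± 0.317 treated.

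With a term for the library sets 14 members were called in MDA-MB-231, the 9 above among them. The others include ITGA3 (0.33, adjusted p = 0.0096), ITGB5 (0.22, adjusted p = 0.0413), ITGB6 (1.31, adjusted p = 0.0112) and LAMB2 (0.34, adjusted p = 0.0356). In a fit of the 6 MDA-MB-231 libraries alone 4 members were called, ITGA5, ITGB3, LAMA1 and LAMA4. The share of 12.5% of all tested genes given above does not belong to either of these fits.

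**Figure D4:**
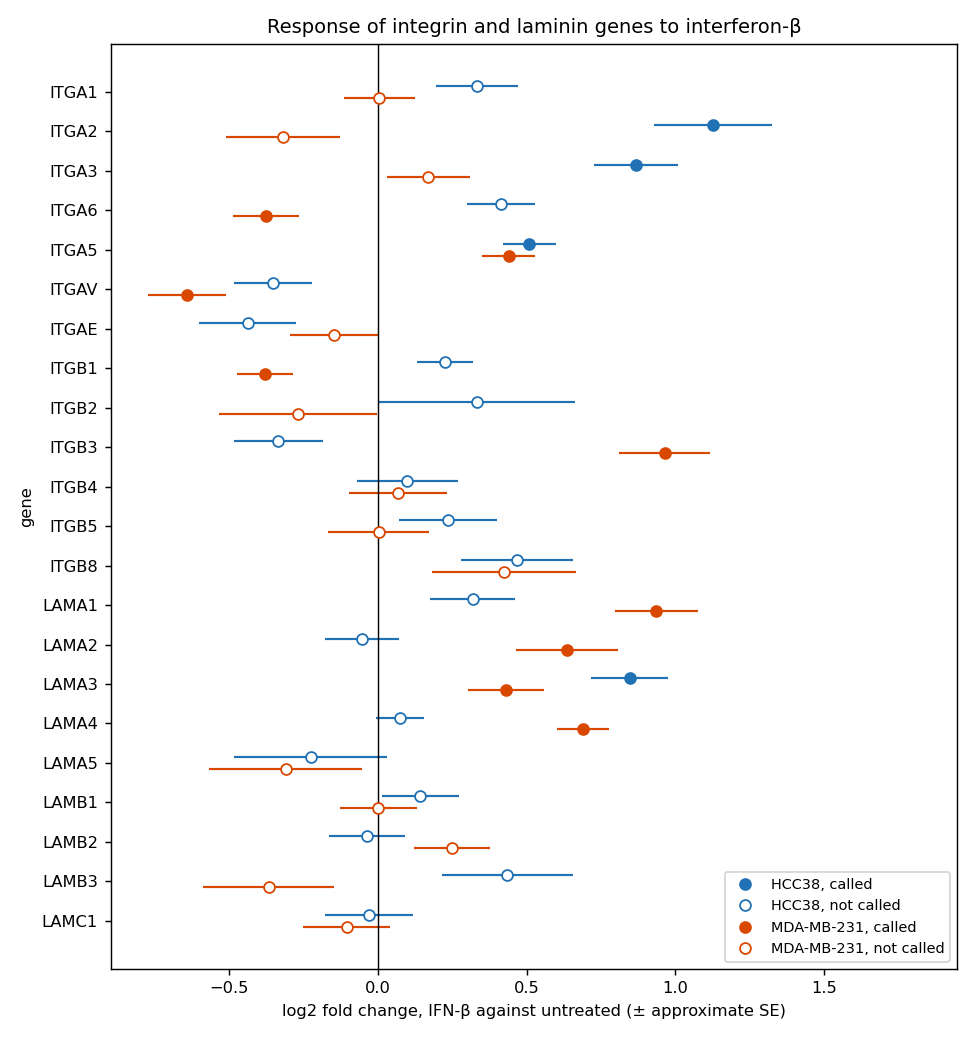
Log2 fold change of interferon-β over untreated in HCC38 and in MDA-MB-231, with bars of 1 approximate SE, for 22 members with a mean of at least 1 CPM in every group and of at least 5 CPM in one. ITGA2, ITGA6 and ITGB1 lie on opposite sides of 0 in the lines, as does ITGB3 in the other direction.

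The responses of the lines differed by test for 5 members, against 3.52% of all genes. In MDA-MB-231 relative to HCC38 the response was higher for 2 of them, against 1.99% of all genes, and lower for 3, against 1.52%. ITGA2 had a log2 fold change of 1.13 in HCC38 and of -0.32 ± 0.20 in MDA-MB-231, a difference of -1.45 ± 0.28 (MDA-MB-231 minus HCC38, adjusted p = 0.0107). In MDA-MB-231 its levels followed the sets rather than the treatment, with 135, 135 and 131 CPM in set A and 86.4, 76.0 and 78.3 CPM in set B. With 1 set alone, where 1 arm is a single library, the difference was -1.18 (set A) and -1.30 (set B). ITGA6 had 0.41 in HCC38, where it was not called, and -0.38 in MDA-MB-231, a difference of -0.79 ± 0.16 (adjusted p = 0.0143). ITGB1 had 0.22 and -0.38, a difference of -0.60 ± 0.13 (adjusted p = 0.0239). ITGB3 had -0.33 and 0.96, a difference of 1.30 ± 0.21 (adjusted p = 0.00406), and after treatment its mean was 12.1 CPM in both lines. LAMA4 had 0.07 and 0.69, a difference of 0.62 ± 0.12 (adjusted p = 0.0126). By leaving out single libraries the call was lost for ITGA6 without untreated HCC38 replicate 1 (adjusted p = 0.0507), for LAMA4 without treated HCC38 replicate 1 (0.0523) and with set A alone (0.0512). The difference of ITGB1 was kept only without untreated or treated HCC38 replicate 2, untreated MDA-MB-231 replicate 3 or treated MDA-MB-231 replicate 1 (up to 0.0746 without any other). On log2(FPKM + 1) with limma, ITGB3 alone of the 5 was called (adjusted p = 0.0221). ITGA3, called in HCC38 alone, had a difference of -0.70 ± 0.20 that was not called (adjusted p = 0.0738), and that of LAMA3 was -0.42 ± 0.18 (adjusted p = 0.234). For ITGA5 the difference was -0.07, with a mean of 145 and 151 CPM in the untreated lines and of 206 and 205 CPM in the treated ones.

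**Figure D5:**
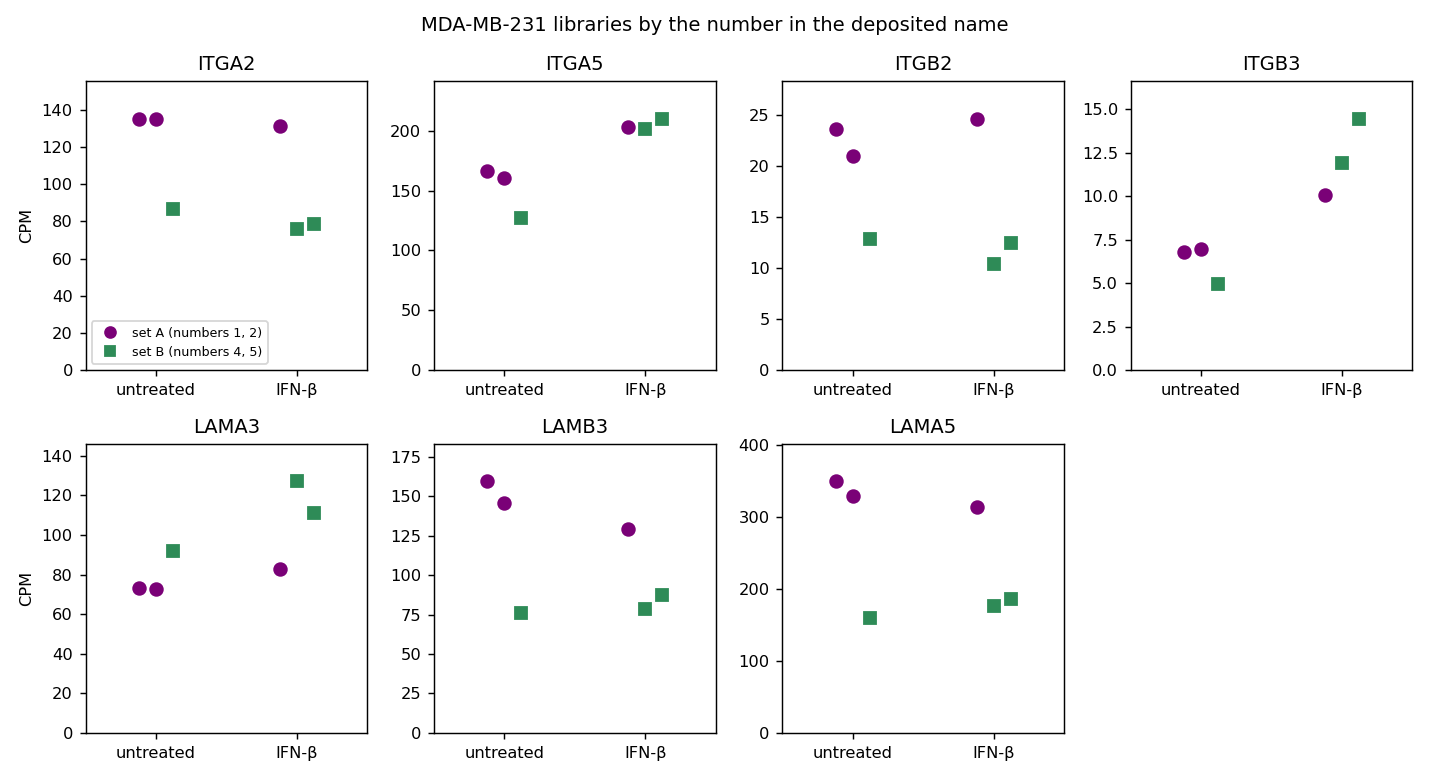
CPM of 7 members in the 6 MDA-MB-231 libraries by treatment, with circles for set A and squares for set B, on axes that start at 0. ITGA2, ITGB2, LAMB3 and LAMA5 lie lower in set B with and without treatment, while ITGA5 and ITGB3 are higher in all treated libraries.

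Many of these genes differed between the library sets of MDA-MB-231. In a fit with a term for treatment, a comparison chosen after seeing the data, 18 of 33 members were called between the sets, against 23.7% of all genes. Lower in set B were 15, among them ITGB2 (-0.95 ± 0.11), LAMA5 (-0.94 ± 0.11), LAMB3 (-0.82 ± 0.09) and ITGA2 (-0.70 ± 0.07). ITGAV (-0.43 ± 0.07), ITGA6 (-0.34 ± 0.07) and ITGB1 (-0.23 ± 0.07), the members called lower in treated MDA-MB-231, were also lower in set B. Higher in set B were LAMA3 (0.42 ± 0.07), ITGAE (0.37 ± 0.11) and ITGA2B, the last at under 1 CPM. LAMA3 and LAMB3, which share a laminin trimer, thus went in opposite directions. The numbers do not say what separates the sets.

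The proteins that work with these chains were described by lists chosen with earlier results of these data known. Of 31 cytoplasmic adaptors and kinases, 1 was called higher and 1 lower in treated HCC38, and 1 higher and 4 lower in treated MDA-MB-231. These shares are near those of all tested genes, 3.64% and 12.5%. TNS4, a tensin that binds the tail of ITGB1, went from 1.56 ± 0.306 to 3.40 ± 0.999 CPM in HCC38 and from 2.81 ± 0.373 to 5.58 ± 0.219 CPM in MDA-MB-231. PARVA, a parvin that links the kinase ILK to actin, fell by 0.32 and 0.46 on the log2 scale. Both had the same direction in the lines. TNS1 (-0.40) and FERMT1 (-0.39), an epithelial kindlin, were the next decreases in MDA-MB-231. Of 12 inhibitors and membrane partners, 0 were called in HCC38, and in MDA-MB-231 1 was, the tetraspanin CD81, higher by 0.45 ± 0.08. Of the 4 tested hemidesmosome genes 0 were called in either line.

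Partners of laminin in the basement membrane were next. In treated HCC38 1 of 13, COL4A1, a chain of type IV collagen, went from 351 to 436 CPM (0.31 ± 0.06, adjusted p = 0.0129), against 2.39% of all genes called higher. In treated MDA-MB-231 5 of 13 were higher and 0 lower, against 6.46% and 6.08% of all genes, led by COL15A1 (2.41 ± 0.40), COL4A6 (1.11 ± 0.14) and NTN4 (0.57 ± 0.11), a netrin that binds laminin. Among the 5 other laminin receptors, the syndecan SDC2 was called higher in MDA-MB-231 (0.27 ± 0.07) and 0 were called in HCC38. Of 34 tested other integrin ligands, 4 were lower and 0 higher in treated HCC38, against 1.25% and 2.39% of all genes. The decreases were led by COL3A1 (-0.77 ± 0.14), TGFB3 (-0.72 ± 0.14) and TGFBI (-0.56 ± 0.08). In treated MDA-MB-231 6 of these ligands were higher and 2 lower, against 6.46% and 6.08% of all genes. The largest were CDH1 (3.99 ± 0.51), a ligand of αEβ7, COL1A2 (3.24 ± 0.78) and COL3A1 (2.02 ± 0.63). The difference of response was called for 6 of the 34, all higher in MDA-MB-231, against 1.99% of all genes. By adjusted p they were led by TGFBI (0.98, adjusted p = 0.000276) and CDH1 (3.78, adjusted p = 0.00107). It was also called higher for 2 of the 13 basement membrane partners, COL4A6 (0.87) and COL15A1 (2.41), and for SDC2 (0.53) among the laminin receptors, and lower for 1 of the 31 adaptors and kinases, the focal adhesion kinase PTK2 (-0.45).

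CDH1, COL1A2 and COL3A1 reached very low levels in treated MDA-MB-231. CDH1 averaged 0.0242 CPM in untreated and 0.527 CPM in treated MDA-MB-231 against 162 CPM in treated HCC38, so the gain was 0.31% of the HCC38 level. The gain was 0.221% for COL3A1, 0.0435% for COL1A2, 0.194% for ITGB6 (0.259 to 0.576 CPM) and 1.05% for LAMC3 (0.02 to 0.116 CPM). All are far higher in HCC38, and NID1, at 351 CPM in treated HCC38, had 0 counts in the 3 treated MDA-MB-231 libraries. For LAMA2 the gain was 2.08%, for LAMA4 7.05%, for ITGB3 48.8% and for LAMA1 68.8% of the treated HCC38 level.

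Between the untreated lines 15 of the 31 adaptors were higher and 13 lower in MDA-MB-231, against 36.4% and 39.0% of all tested genes, with FERMT3, the kindlin of blood cells, at 1.03 against 208 CPM (7.65 ± 0.18), APBB1IP, a recruiter of talin, also higher (3.31 ± 0.15), and PARVB (-6.03 ± 0.26) and TNS1 (-2.02 ± 0.10) lower. Of the 13 basement membrane partners 8 were lower, NID1 with 283.6 CPM in untreated HCC38 and 0 counts in all 6 MDA-MB-231 libraries, and NID2 at -8.91 ± 0.35, while HSPG2, the proteoglycan perlecan, was higher (1.71 ± 0.13). NID1 and NID2 are nidogens, which tie laminin to type IV collagen. Of the inhibitors and membrane partners 6 were higher, led by DOK1 (3.46 ± 0.14) and KANK2 (1.25 ± 0.12), and 2 lower, KANK1 (-2.79 ± 0.09) and CD9. The laminin receptors BCAM (-2.31 ± 0.13) and SDC2 (-1.89 ± 0.07) were among 4 of 5 lower, and of the hemidesmosome genes COL17A1 (4.77 ± 0.30) and PLEC (1.70 ± 0.10) were among 3 of 4 higher, with KRT5 lower.

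The counts of some members are uncertain. ITGAE averaged 17.0 CPM but 47.6 FPKM over the 12 libraries, so that its counts correspond to 5.38% of its exon length in GENCODE release 29. On the opposite strand HASPIN and another gene model share 505 bases with the 6.66 kb of ITGAE exons. The strand setting of the counting is not given in the sources used here. Why the counts and the FPKM of ITGAE disagree was not tested. Its values of 9.07 ± 1.37 CPM in untreated HCC38 and 27.5 ± 4.61 CPM in untreated MDA-MB-231 are therefore not read as its level. On its own strand ITGB3 shares 2266 exon bases with a gene model, ITGA1 1046 with models and ITGB6 966 with a model. LAMA1 shares 1754 with models on the opposite strand and ITGB7 1886 with ZNF740. The 5 members that did not pass the filter had at most 18 counts in any library, which was ITGAL in treated MDA-MB-231 replicate 1. The other 4 were ITGA8, with 2 counts or fewer per library, ITGA9 and LAMB4, with 9 or fewer, and ITGAD, with 1 or 0.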

How the data were processed

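Total RNA (RNeasy kit) was sequenced from NEBNext Ultra II Directional libraries, per the labels' protocols. The authors deposited whole-number read counts per gene, not normalized, and FPKM estimates with gene coordinates, 1 table of each per library. Tools named, per the submitters' processing notes, are Cufflinks 2.2.1, HTSeq 2.0.2 and fastp 0.23.2, with build GRCh38.p13. Neither the counting strand nor the annotation version is given in the sources used here, so overlapping genes can lose or gain counts.

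Counts were fitted with edgeR 4.0.16 (limma 3.58.1, R 4.3.3): TMM scaling (factors 0.947 to 1.03), filterByExpr with a minimum count of 10 and total of 15 (18121 genes), quasi-likelihood tests with 1 coefficient per group over all 12 libraries, and Benjamini-Hochberg adjustment over all genes. The log2 fold changes use a prior count of 0.125 and have an approximate SE. CPM are counts divided by the library total on a common scale, and levels are mean ± SD of 3 libraries. Counting intervals are 95% Poisson intervals. The script was tested on simulated counts. Alternatives were DESeq2 1.42.0, other scalings and filters, log2(FPKM) with limma, a replicate block, a term for the library sets of MDA-MB-231, and leaving out each library. FPKM fits kept genes with a mean of at least 0.5.

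The members, the lists and the rule for naming were chosen with earlier results of these data known. Every member is counted, with some items not reported here, and values by library are given for members called in an interferon comparison or, between the lines, with at least 5 FPKM in a group and an absolute log2 fold change of at least 2. Of each list, the 3 largest calls per treatment and the 2 largest in each direction between the untreated lines are named. The comparison of the untreated lines is not reported here for the list of other integrin ligands. Sequences are from RefSeq (GRCh38.p14), exons from GENCODE release 29.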

Additional observations from a re-analysis of the deposited data

Results flagged for a closer look

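The responses of the lines to interferon-β differed by the test of the difference itself (edgeR's quasi-likelihood test) for 5 members, given as MDA-MB-231 minus HCC38 on the log2 scale. The difference was -1.45 for ITGA2, -0.79 for ITGA6 and -0.60 for ITGB1, all integrin chains whose estimate was above 0 in HCC38 and below 0 in MDA-MB-231. Of those estimates ITGA2 was not called in MDA-MB-231, and ITGA6 and ITGB1 were not called in HCC38. It was 1.30 for ITGB3 and 0.62 for the laminin chain LAMA4. In a fit with a term for the library sets of MDA-MB-231 the 5 stayed called, with -1.23, -0.67, -0.53, 1.31 and 0.63 in the same order. ITGB3 alone was called on log2(FPKM + 1) with limma. The calls of ITGA6, ITGB1 and LAMA4 were lost without some single libraries.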

How the results depend on the processing

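The 5 members called in HCC38 were 9 with no filter, 15 in a fit of its 6 libraries, 12 with the term for the library sets, 3 on log2(FPKM + 1), 3 on log2(FPKM + 0.1), 2 on log2(FPKM + 1) without a filter, and 4 to 7 without single libraries. The 9 of MDA-MB-231 were 4 in a fit of its 6 libraries, 14 with the set term, 4, 5 and 4 on the FPKM scales in the same order, and 5 (without treated replicate 3) to 10 without single libraries. The 5 differences were 8 in DESeq2, 10 with no filter, 10 with the set term, 8 with set A alone, 8 with set B alone, 1 on each FPKM scale, and 3 to 10 (without treated MDA-MB-231 replicate 1) without single libraries. The cause of these shifts was not tested. The shares of all tested genes given above for these comparisons do not belong to the alternative fits. The line comparisons had 22 to 29 calls under the alternatives run, of which 21 to 26 were among the 26 reported for each, and without single libraries 26 to 28 calls. RLE size factors and library totals left the counts at 5, 9, 5, 26 and 26, although with library totals ITGA6 was not called in MDA-MB-231. Over single genes 3594 results kept their call, 104 gained one, 98 lost one and 3 changed sign with a call, all of LAMA5: between the untreated lines it was -0.78 with set B alone, and between the treated lines 0.50 with the set term and 0.41 with set A alone. The set term puts the MDA-MB-231 groups at the level of set A. For the line comparisons these last 2 settings are therefore nearly the same. By the replicate numbers of the titles, same-numbered libraries correlated in their deviations at -0.12 to 0.04 in HCC38 and -0.26 to 0.27 in MDA-MB-231. By the numbers in the deposited names, untreated and treated MDA-MB-231 replicate 1 correlated at 0.27, and untreated replicate 3 and treated replicate 2 at 0.38. These pairs also share a library set, and the other pairs within a set were at 0.32 and 0.25. Pairing in MDA-MB-231 therefore cannot be told apart from the sets. With a replicate block 7 members were called in HCC38, 9 in MDA-MB-231, 5 for the difference and 26 in each line comparison. Depth limits the genes under 1 CPM.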
